A study of Homo sapiens with 9 samples.

Results

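The 8 genes described here encode proteins of the red cell membrane: SLC4A1, ANK1, EPB42, SPTB, GYPB, GYPE, RHAG and KEL. They were taken from a list of names and found by symbol in the deposited table, where each had a single entry among 60662 genes, and all 8 passed the filter on low counts. They were measured by bulk RNA-seq in SET2, a JAK2-mutant megakaryoblastic leukemia line labelled as acute myeloid leukemia after a myeloproliferative neoplasm (MPN), in 9 untreated libraries. Of these, 3 came from wild-type (WT) cells, 3 from DYRK1A knockout (KO) clone 11H1 and 3 from KO clone 14B5. Both clones were made by nucleofection of a Cas9 ribonucleoprotein, grown from a single sorted cell and kept for carrying out-of-frame indels in DYRK1A, the gene of a kinase on chromosome 21. The 3 libraries of a clone therefore share a founder cell, no clone of an unedited SET2 cell was sequenced, and the effect of DYRK1A loss and the particular history of each clone cannot be told apart. The labels do not say whether libraries of a group came from separate cultures, so p values measure the spread between these libraries, which may be technical.

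A red cell keeps its shape because a skeleton of spectrin lies under its membrane and is fastened to proteins that cross it. Band 3 (SLC4A1), the chloride and bicarbonate exchanger, is the main anchor: ankyrin (ANK1) ties it to spectrin beta (SPTB), protein 4.2 (EPB42) steadies that contact, and the Rh-associated glycoprotein (RHAG), the glycophorins and the Rh proteins gather around it. GYPB carries the S and s blood groups, GYPE is its close relative in the same gene cluster, and KEL is the enzyme that carries the Kell blood group and is joined to the XK protein. Faults in SLC4A1, ANK1, SPTB and EPB42 cause hereditary spherocytosis, and loss of RHAG causes a form of the Rh-null type. In a normal marrow these genes are switched on as erythroid precursors mature, in large part by the factors GATA1, TAL1 and KLF1.

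The libraries held 32347779 to 60272245 expected counts. In the smallest, 0 counts of a gene allow a level of 0.0914 CPM (counts per 1e6 on library sizes scaled by TMM), which covers counting error only. The lowest count of any of the 8 genes in any library was 204 expected counts, for GYPB in a 14B5 library. DYRK1A itself had 197, 196 and 219 CPM in the WT libraries, 188, 191 and 192 CPM in those of 11H1 and 191, 182 and 174 CPM in those of 14B5. Its log2 fold change was −0.09 in 11H1 (edgeR adjusted p = 0.131) and −0.17 in 14B5 (edgeR adjusted p = 0.0278), and a count per gene does not show indels. Of the markers of the megakaryocyte lineage, ITGA2B was at 920 CPM in WT, whereas PF4, PPBP and VWF were each under 1 CPM. The share of counts from mitochondrial transcripts was 7.23% to 7.39% for 11H1, 3.30% to 3.92% for 14B5 and 3.54% to 6.03% for WT, and the part of this in the differences given here was not tested.

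Promoter windows from RefSeq (build GRCh38.p14), 250 bases before to 50 bases after a transcription start, were at hand for 6 of the 8 genes: GYPB, GYPE, EPB42, SPTB, RHAG and KEL. No window is printed for SLC4A1 or ANK1. The windows of GYPB and GYPE are shown because both genes fell in 14B5, SPTB because it rose in both clones, KEL because the clones went opposite ways and RHAG because no difference was found. Each is written 5′ to 3′ on the minus strand, the strand of the gene, and capitals mark matches on either strand to a GATA motif (AGATAA or TGATAA) or a KLF motif (CCNCNCCC).
GYPB, chr4:144019331-144019630: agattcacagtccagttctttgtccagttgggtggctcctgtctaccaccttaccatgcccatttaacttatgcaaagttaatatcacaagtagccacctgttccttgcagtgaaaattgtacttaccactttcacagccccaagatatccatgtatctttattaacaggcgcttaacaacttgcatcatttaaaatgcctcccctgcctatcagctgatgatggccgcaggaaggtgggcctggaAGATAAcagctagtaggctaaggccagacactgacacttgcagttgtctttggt
GYPE, chr4:143905510-143905809: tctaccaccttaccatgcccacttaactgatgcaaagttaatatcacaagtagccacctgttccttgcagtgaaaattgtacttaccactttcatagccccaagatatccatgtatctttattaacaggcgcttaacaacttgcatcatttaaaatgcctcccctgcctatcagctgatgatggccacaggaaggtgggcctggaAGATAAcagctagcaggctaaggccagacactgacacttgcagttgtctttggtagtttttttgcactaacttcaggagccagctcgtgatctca
SPTB, chr14:64879858-64880157: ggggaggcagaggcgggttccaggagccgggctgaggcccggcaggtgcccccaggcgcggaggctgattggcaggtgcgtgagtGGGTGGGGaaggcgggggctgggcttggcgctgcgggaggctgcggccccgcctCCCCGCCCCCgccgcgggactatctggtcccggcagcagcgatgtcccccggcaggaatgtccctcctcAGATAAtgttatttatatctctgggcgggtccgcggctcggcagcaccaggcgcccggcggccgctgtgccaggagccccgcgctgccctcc
RHAG, chr6:49636790-49637089: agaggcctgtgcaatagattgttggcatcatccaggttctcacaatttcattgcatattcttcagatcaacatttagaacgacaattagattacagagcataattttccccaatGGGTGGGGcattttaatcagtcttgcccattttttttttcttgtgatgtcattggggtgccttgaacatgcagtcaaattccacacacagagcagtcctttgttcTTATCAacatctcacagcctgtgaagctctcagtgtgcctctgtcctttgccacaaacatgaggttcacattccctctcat
KEL, chr7:142962314-142962613: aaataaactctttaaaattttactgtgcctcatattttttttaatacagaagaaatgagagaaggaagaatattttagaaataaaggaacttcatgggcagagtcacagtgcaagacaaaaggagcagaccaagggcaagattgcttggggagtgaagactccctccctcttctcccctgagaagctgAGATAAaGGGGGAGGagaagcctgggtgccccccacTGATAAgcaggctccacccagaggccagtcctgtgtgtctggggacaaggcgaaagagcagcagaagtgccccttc

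At their best ungapped alignment the GYPB and GYPE windows were identical at 254 of 259 bases (98.1%). The GATA motif lay 4 bases before the start in this GYPB window, 45 before it in GYPE, 42 in SPTB, 31 in RHAG, 62 and 26 in KEL, and 208 and 61 in EPB42. All 6 genes thus held a GATA match in at least 1 of their windows, as did 16.4% of 34796 RefSeq promoter windows of the same length. A KLF match was found in EPB42, SPTB, RHAG and KEL but not in GYPB or GYPE, and in 56.1% of all windows; some KLF matches in SPTB and EPB42 overlapped each other. No window of the 6 genes held the STAT motif TTCNNNGAA, which 7.67% of all windows held. These are matches of letters only. Whether any match is bound in these cells, or bears on the values that follow, was not tested.

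Per kilobase of exon, the order of levels in WT was led by RHAG at 162 ± 2.8 CPM per kb (SD, n = 3). ANK1 at 39.9 ± 2.8 and GYPE at 39.7 ± 0.57 CPM per kb followed, and their libraries overlapped. GYPB was at 10.4 ± 0.77, EPB42 at 9.62 ± 0.14, SPTB at 7.01 ± 0.39, KEL at 2.90 ± 0.38 and SLC4A1, the lowest, at 2.20 ± 0.21 CPM per kb, each with libraries apart from the next. In 11H1 SLC4A1 stood at 10.8 ± 0.39 CPM per kb, in a run of EPB42, SLC4A1 and GYPB in which neighbours overlapped, and KEL was the lowest at 4.83 ± 0.084. In 14B5 the lowest pair was GYPB at 2.68 ± 0.25 and KEL at 2.34 ± 0.12 CPM per kb, which also overlapped. RHAG and ANK1 were first and second in every group.

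**Figure D1:**
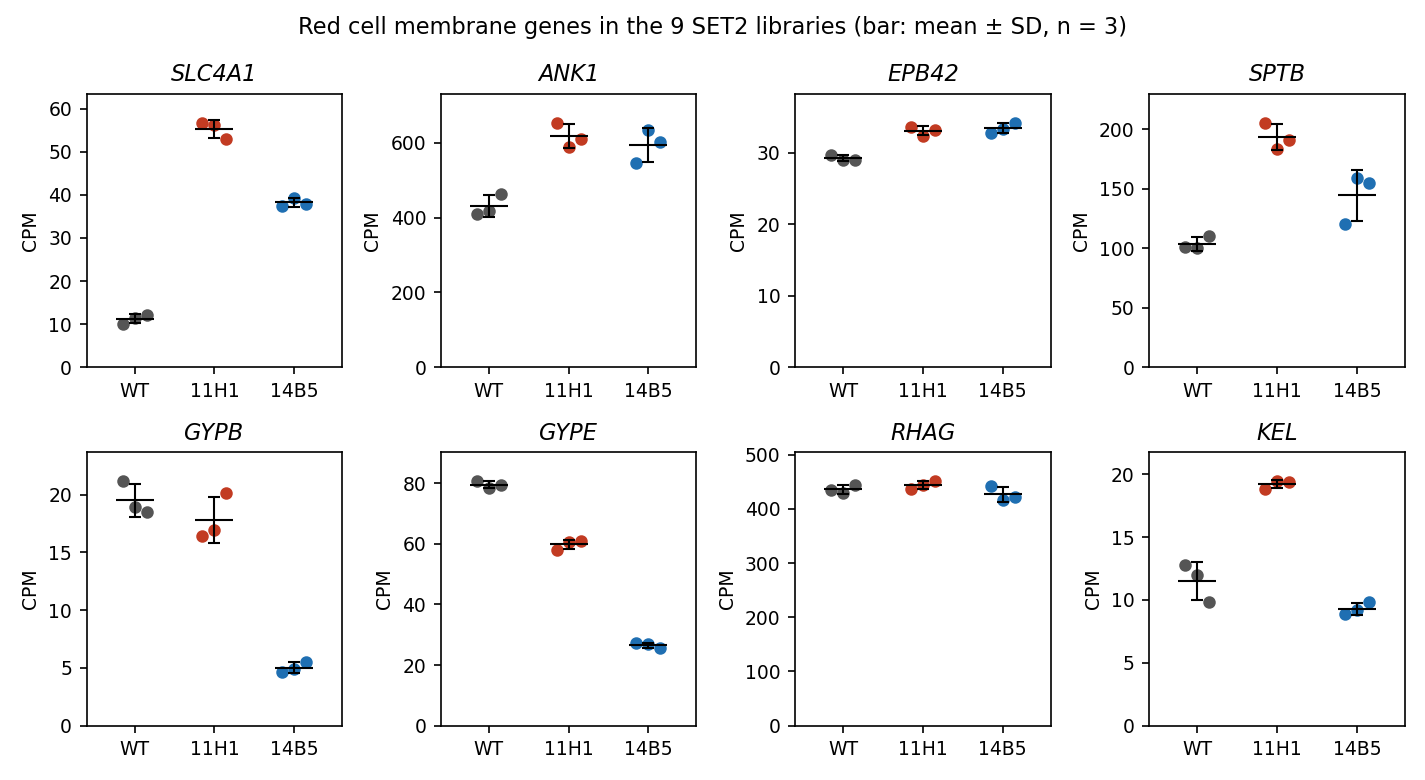
Level of each of the 8 genes in CPM (y axis, from 0, a scale of its own in each panel) in the 3 WT, 3 11H1 and 3 14B5 libraries (points), with the mean ± SD (n = 3). SLC4A1 libraries sit between 10.1 and 12.2 CPM in WT and above 37 CPM in both clones, GYPB and GYPE are lowest in 14B5, and RHAG overlaps between all groups.

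Of the 8 genes, 5 were higher and 1 was lower in 11H1 than in WT, and 4 were higher and 3 lower in 14B5 than in WT, at an edgeR adjusted p under 0.05. SLC4A1, ANK1, SPTB and EPB42, the band 3, ankyrin and spectrin attachment, were higher in both clones, GYPE was lower in both, KEL went opposite ways, GYPB was lower in 14B5 and RHAG passed the test in neither. Across all genes 64.6% of 16675 tested passed in 11H1 versus WT (31.8% higher, 32.8% lower) and 53.5% of 16537 in 14B5 versus WT (24.9% higher, 28.7% lower). The median log2 fold change of the 8 genes was 0.36 in 11H1 and 0.07 in 14B5, beside −0.01 over all genes tested in each comparison. Both comparisons use the same WT libraries. In bulk RNA a change in the number of cells of a type and a change in RNA per cell cannot be told apart.

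**Figure D2:**
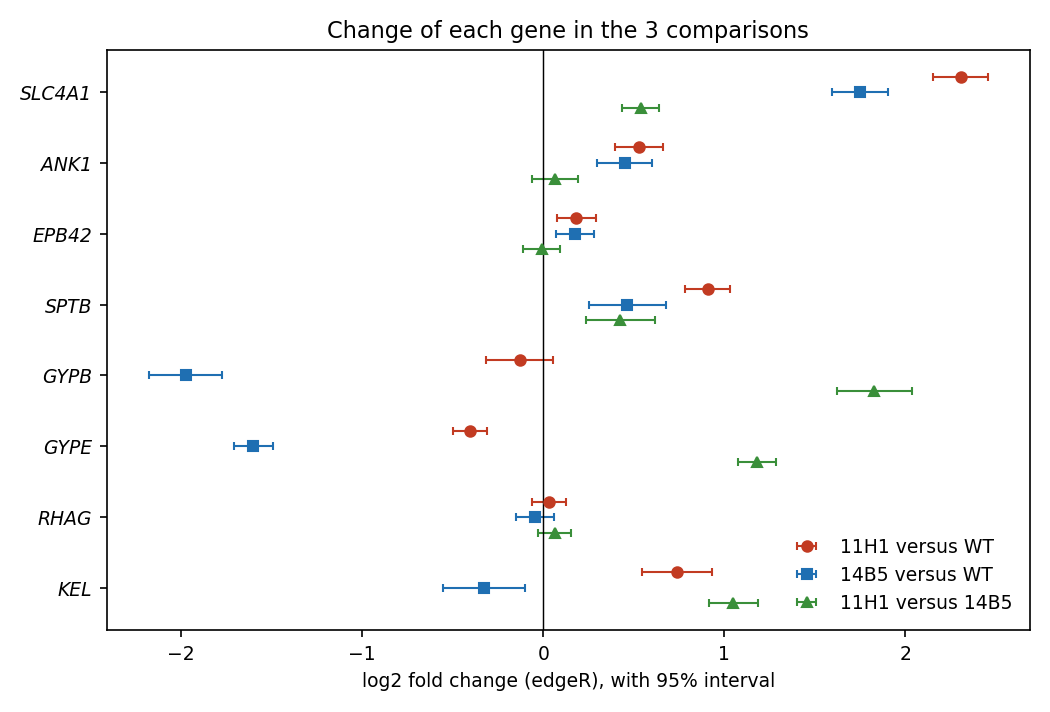
log2 fold change (x axis) of each gene (y axis) by edgeR in 11H1 versus WT (circles), 14B5 versus WT (squares) and 11H1 versus 14B5 (triangles), with 95% intervals. SLC4A1 lies furthest to the right in both clones, at 2.30 and 1.75, and GYPB furthest to the left in 14B5, at −1.97.

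SLC4A1 (ENSG00000004939.15, chr17:44248385-44268141, minus strand, GENCODE v29 on GRCh38) changed most of the 8 genes in 11H1. The 3 WT libraries held 10.1, 11.5 and 12.2 CPM, the 11H1 libraries 56.7, 56.1 and 53.0 CPM and the 14B5 libraries 37.4, 39.4 and 37.9 CPM. Every library of either clone was above every WT library, and 11H1 was above 14B5 without overlap. The log2 fold change was 2.30 ± 0.069 (SE) in 11H1, or 4.94-fold (edgeR adjusted p = 2.20e-10), and 1.75 ± 0.069 in 14B5, or 3.36-fold (edgeR adjusted p = 2.70e-08). The direct difference between the clones was 0.54 on the log2 scale, with a 95% interval of 0.44 to 0.64 (edgeR adjusted p = 1.56e-06). For SLC4A1 and each other gene of the 8 called in a clone, the 3 libraries did not overlap with those of WT. This gives p = 0.1 in a 2-sided exact permutation test, the smallest that 3 libraries against 3 allow. The share of all genes that separate in this way is not given, so separation does not set these genes apart.

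ANK1 (ENSG00000029534.20, chr8:41653220-41896762, minus strand) encodes the adaptor between band 3 and spectrin. Its WT libraries held 409, 418 and 464 CPM, those of 11H1 654, 590 and 611 CPM and those of 14B5 545, 635 and 604 CPM. Both clones were above WT, and they overlapped with each other. The log2 fold changes were 0.53 ± 0.060 (edgeR adjusted p = 9.74e-06) and 0.45 ± 0.068 (edgeR adjusted p = 3.21e-04). Between the clones the difference was 0.06 with an interval of −0.06 to 0.19 (edgeR adjusted p = 0.364), and it turned to −0.00 without 14B5 replicate 1.

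EPB42 (ENSG00000166947.14, chr15:43197227-43221125, minus strand), protein 4.2, showed the smallest change of those called. Its libraries held 29.7, 28.98 and 28.999 CPM in WT, 33.6, 32.4 and 33.1 CPM in 11H1, and 32.8, 33.3 and 34.2 CPM in 14B5. The WT libraries were the lowest, by a margin of a few CPM, and the clones overlapped. The log2 fold change was 0.18 ± 0.050 in 11H1 (edgeR adjusted p = 0.00658) and 0.18 ± 0.047 in 14B5 (edgeR adjusted p = 0.00940). The difference between clones was −0.01, with an interval of −0.11 to 0.09 (edgeR adjusted p = 0.874), and its sign turned to 0.03 with protein-coding genes only. Of 3324 windows of 100 bases in EPB42 transcripts, 10.5% also occur in AC068724.4, whose own count was 0 in every library.

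SPTB (ENSG00000070182.21, chr14:64746283-64879907, minus strand), spectrin beta, had 101, 99.9 and 110 CPM in WT, 205, 184 and 191 CPM in 11H1 and 120, 159 and 155 CPM in 14B5. The 14B5 libraries were spread widely, with replicate 1 near WT, and all 3 lay between those of WT and 11H1. The log2 fold change was 0.91 ± 0.058 in 11H1 (edgeR adjusted p = 8.36e-08) and 0.46 ± 0.094 in 14B5 (edgeR adjusted p = 0.00213). The clones differed by 0.43, with an interval of 0.23 to 0.62 (edgeR adjusted p = 0.00115). SPTB overlaps PLEKHG3 on the opposite strand at its 3′ end, and whether counting used strand is not given in the sources used here.

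Ratios of counts per kilobase within a library compare the members of the attachment without the scaling between libraries. The ratio of SLC4A1 to ANK1 averaged 0.0551 in WT, 0.188 in 11H1 and 0.136 in 14B5, and that of SLC4A1 to EPB42 averaged 0.229, 0.992 and 0.678. In neither of these did the libraries of any 2 groups overlap. The ratio of SPTB to ANK1 was 0.173 to 0.180 in WT, 0.227 to 0.229 in 11H1 and 0.161 to 0.187 in 14B5.

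**Figure D3:**
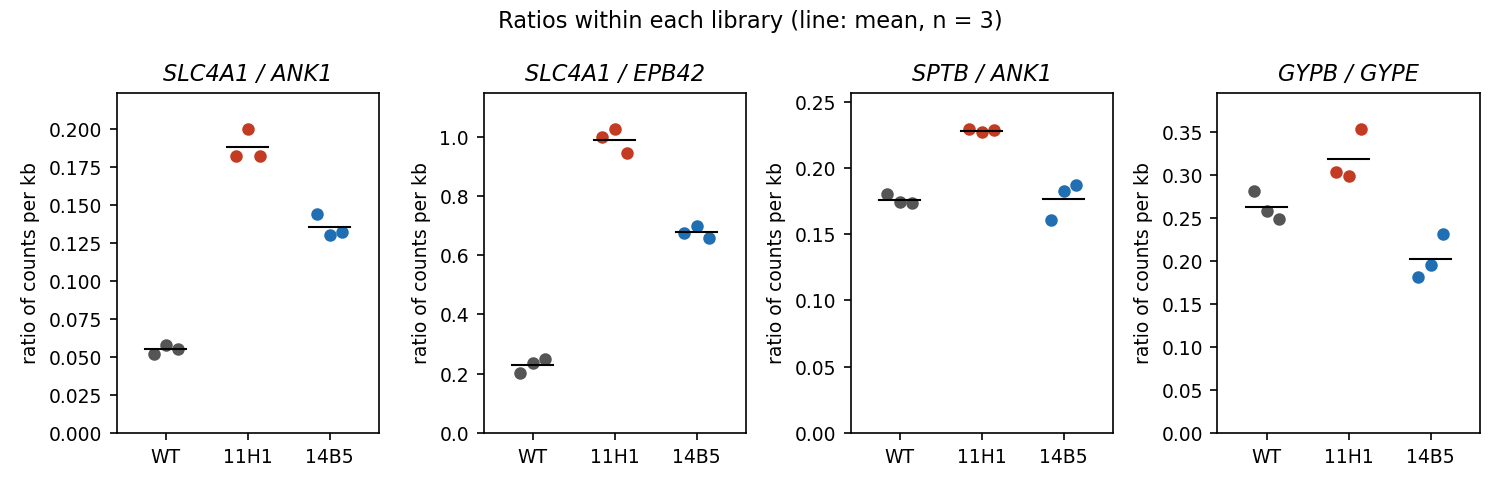
Ratio of counts per kilobase of exon within each library (y axis, from 0) for 4 pairs of genes in WT, 11H1 and 14B5 (points, n = 3 each; line, mean). SLC4A1 relative to ANK1 and to EPB42 separates the 3 groups, SPTB relative to ANK1 is highest in 11H1, and GYPB relative to GYPE is lowest in 14B5.

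GYPB (ENSG00000250361.8, chr4:143996104-144019345, minus strand) was the gene with the largest fall among the 8. It had 21.2, 18.9 and 18.5 CPM in WT, 16.5, 16.9 and 20.1 CPM in 11H1 and 4.61, 4.90 and 5.52 CPM in 14B5. The 11H1 libraries overlapped with WT, whereas all 14B5 libraries were far below both. In 14B5 the log2 fold change was −1.97 ± 0.091, to 0.254 of the WT level (edgeR adjusted p = 7.24e-08). In 11H1 it was −0.13, with an interval of −0.32 to 0.06 (edgeR adjusted p = 0.197), and it passed the threshold without 11H1 replicate 3 at −0.22 (edgeR adjusted p = 0.0394). The direct difference between the clones was 1.83, with an interval of 1.62 to 2.04 (edgeR adjusted p = 2.92e-08).

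GYPE (ENSG00000197465.14, chr4:143870867-143905563, minus strand) was lower in both clones. It had 80.7, 78.4 and 79.5 CPM in WT, 58.1, 60.6 and 61.0 CPM in 11H1 and 27.2, 26.8 and 25.5 CPM in 14B5, so that the 3 groups did not overlap. The log2 fold change was −0.40 ± 0.044 in 11H1 (edgeR adjusted p = 7.37e-06) and −1.60 ± 0.049 in 14B5 (edgeR adjusted p = 5.67e-09). The clones differed by 1.18, with an interval of 1.08 to 1.28 (edgeR adjusted p = 4.31e-09).

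GYPC, a glycophorin of another family that binds protein 4.1, fell in both clones, with log2 fold changes of −0.86 and −0.27 (edgeR adjusted p = 1.33e-07 and 0.00221). Of 100-base windows of GYPB transcripts 3.51% also occur in another gene, so its reads could be divided, and none of those of GYPE do. The ratio of GYPB to GYPE counts per kilobase ranged from 0.249 to 0.281 in WT, from 0.299 to 0.353 in 11H1 and from 0.181 to 0.232 in 14B5, without overlap. The transcript AC139713.2 overlaps GYPB and GYPE on the opposite strand.

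RHAG (ENSG00000112077.16, chr6:49605158-49636884, minus strand), the core of the Rh complex and a gas and ammonium channel, had 435, 429 and 444 CPM in WT, 437, 444 and 451 CPM in 11H1 and 442, 416 and 422 CPM in 14B5. All groups overlapped. The log2 fold change was 0.03, with an interval of −0.06 to 0.13, in 11H1 (edgeR adjusted p = 0.517) and −0.05, with an interval of −0.15 to 0.06, in 14B5 (edgeR adjusted p = 0.427). Between clones it was 0.06, with an interval of −0.03 to 0.15 (edgeR adjusted p = 0.199), and 0.10 with protein-coding genes only, past the threshold (edgeR adjusted p = 0.0448). RNA of the Rh proteins that RHAG carries to the membrane was lower, and protein was not measured. RHCE fell from 94.2 ± 2.3 CPM in WT to 37.0 ± 0.81 CPM in 11H1 and 24.4 ± 1.5 CPM in 14B5. RHD fell from 79.8 ± 0.78 to 44.4 ± 3.1 and 31.7 ± 0.46 CPM. Their log2 fold changes were −1.35 and −1.97 for RHCE (edgeR adjusted p = 7.88e-10 and 3.81e-09) and −0.84 and −1.35 for RHD (edgeR adjusted p = 8.12e-08 and 8.86e-09). RHD and RHCE transcripts share 231 windows of 100 bases, 6.005% of those of RHD and 7.67% of those of RHCE, so reads could be divided between them. ICAM4, an adhesion molecule of the same complex, fell by 0.41 in 11H1 (edgeR adjusted p = 1.97e-05) and rose by 0.19 in 14B5 (edgeR adjusted p = 0.00680).

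KEL (ENSG00000197993.9, chr7:142941114-142962681, minus strand) was the only one of the 8 called in opposite directions. It had 12.8, 11.97 and 9.845 CPM in WT, 18.8, 19.4 and 19.4 CPM in 11H1 and 8.92, 9.18 and 9.835 CPM in 14B5. The 11H1 libraries were well above the rest, while the highest 14B5 library fell just short of the lowest WT library. In 11H1 the log2 fold change was 0.74 ± 0.089 (edgeR adjusted p = 1.68e-05). In 14B5 it was −0.33 ± 0.10 (edgeR adjusted p = 0.0206), and that call was lost without 14B5 replicate 1 (−0.28, edgeR adjusted p = 0.0757), 14B5 replicate 2 (−0.30, edgeR adjusted p = 0.0665), WT replicate 1 (−0.24, edgeR adjusted p = 0.0836) or WT replicate 2 (−0.30, edgeR adjusted p = 0.0704). The difference between the clones, 1.05 with an interval of 0.91 to 1.19 (edgeR adjusted p = 7.39e-08), kept its call under every alternative run. XK, the membrane partner of KEL, moved otherwise: it was at 186 ± 17 CPM in WT, 131 ± 3.4 CPM in 11H1 (log2 fold change −0.50, edgeR adjusted p = 2.03e-05) and 189 ± 10 CPM in 14B5 (0.01, edgeR adjusted p = 0.911). The ratio of KEL to XK counts per kilobase averaged 0.0822 in WT, 0.192 in 11H1 and 0.0646 in 14B5.

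Set against each other directly, the clones differed in 5 of the 8 genes, all higher in 11H1 (GYPB, GYPE, KEL, SLC4A1 and SPTB), where 63.7% of 16352 genes passed the test (31.6% higher in 11H1, 32.1% lower). With the clones pooled as KO (n = 6) versus WT (n = 3), 4 of the 8 were higher and none was lower by edgeR, beside 32.0% of 17080 genes called in either direction (14.3% higher, 17.7% lower). The 4 were SLC4A1 (2.05, edgeR adjusted p = 2.31e-05), ANK1 (0.49, edgeR adjusted p = 7.19e-04), SPTB (0.70, edgeR adjusted p = 0.00561) and EPB42 (0.18, edgeR adjusted p = 0.0175). The EPB42 call was lost without any one of the WT libraries, with adjusted p values of 0.0579 to 0.0697. For GYPE the pooled log2 fold change was −0.88 (edgeR adjusted p = 0.0549), for GYPB −0.78 (edgeR adjusted p = 0.242) and for KEL 0.30 (edgeR adjusted p = 0.477). In each of these the clones lay apart. The pooled tests treat the 6 KO libraries as independent, though they stem only from the founder cells of 11H1 and 14B5. At an unadjusted edgeR p under 0.05, 1 of the 8 genes was lower, beside 22.1% of all genes tested. It was GYPE, whose 2-sided exact permutation test gave p = 0.0238. The DESeq2 Wald test and limma-voom both called it (adjusted p = 0.0200 and 0.0303). By edgeR GYPE also passed the threshold without any one of the 11H1 libraries (−0.99 to −1.01, edgeR adjusted p = 0.0402 to 0.0443). For RHAG the pooled value was −0.00 (edgeR adjusted p = 0.987), and its sign turned under several alternatives.

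Of 38 other genes of the red cell membrane, 37 could be tested in 11H1 versus WT, where 12 were higher and 14 lower, and all 38 in 14B5 versus WT, where 16 were higher and 11 lower. In both clones 9 were higher and 10 lower, and 1 (ICAM4) went opposite ways. Between the clones 7 were higher and 22 lower in 11H1. Over all genes tested 64.6% were called in 11H1 versus WT (31.8% higher, 32.8% lower) and 53.5% in 14B5 versus WT (24.9% higher, 28.7% lower). Between the clones 63.7% were called (31.6% higher in 11H1, 32.1% lower). The share of all genes called the same way in both clones is not given. The median log2 fold change of these other membrane genes was 0.03 in 11H1 and 0.11 in 14B5. AQP1, the water channel of the red cell, rose most, from 33.6 ± 1.0 CPM to 183 ± 2.4 CPM in 11H1 and 272 ± 14 CPM in 14B5 (log2 fold change 2.45 and 3.00, edgeR adjusted p = 6.68e-12 and 3.07e-10), and ADD2, the adducin that caps the actin of the skeleton, rose by 0.62 and 0.98 on the log2 scale (edgeR adjusted p = 6.45e-07 and 1.25e-07). ABCG2, a urate and porphyrin exporter, was lower, with log2 fold changes of −1.52 and −1.49 (edgeR adjusted p = 3.44e-06 and 5.44e-06), and CD44, the hyaluronan receptor, likewise, with −0.94 and −0.99 (edgeR adjusted p = 1.19e-08 and 2.42e-07). EPB41, protein 4.1 of the spectrin and actin junction, had a log2 fold change of −0.08 in 11H1 (edgeR adjusted p = 0.252) and fell by 0.37 in 14B5 (edgeR adjusted p = 0.00127).

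**Figure D4:**
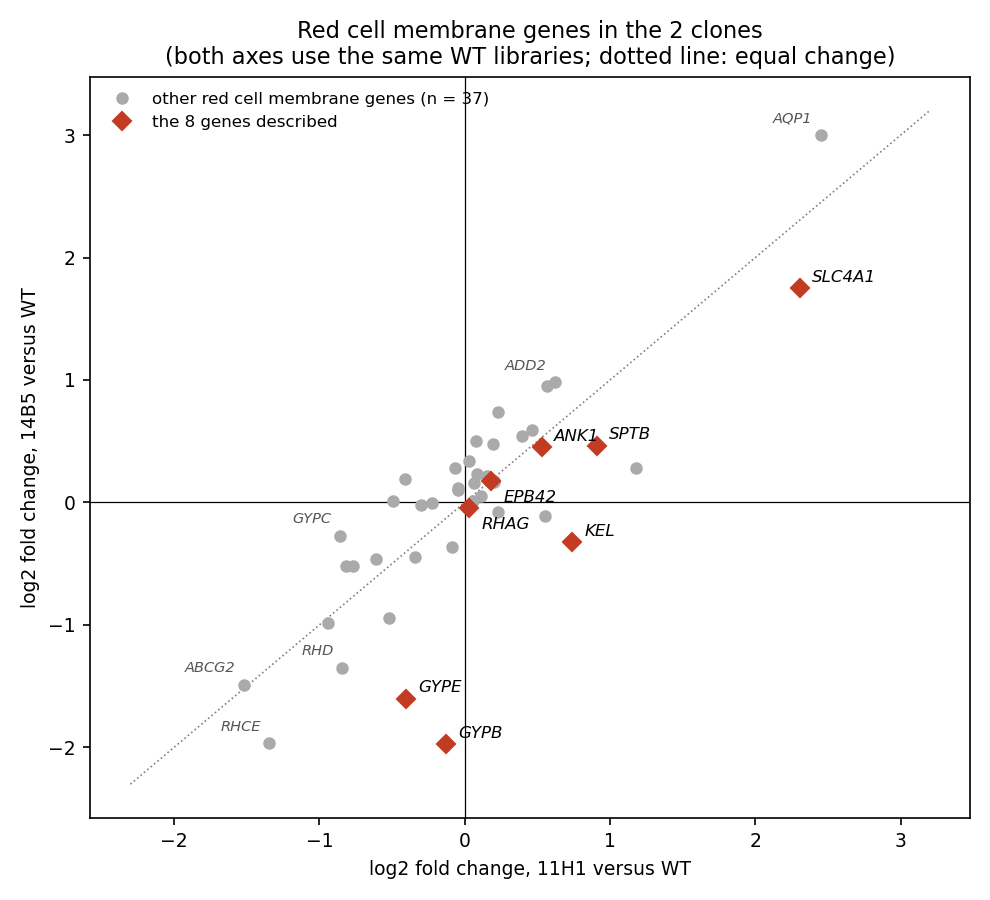
log2 fold change in 11H1 versus WT (x axis) and 14B5 versus WT (y axis) of the 8 genes (diamonds) and of 37 other red cell membrane genes tested in both (circles), with the line of equal change dotted. Both axes use the same WT libraries, so the position of a point along the dotted line holds shared error. SLC4A1 and AQP1 are the 2 points at the upper right, GYPB and GYPE lie far below the line, and KEL is to the right of 0 on one axis and under 0 on the other.

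Among 12 erythroid regulators, 6 were higher and 3 lower in 11H1, and 7 were higher and 1 lower in 14B5. Over all genes tested 64.6% were called in 11H1 (31.8% higher, 32.8% lower) and 53.5% in 14B5 (24.9% higher, 28.7% lower). These shares also stand beside the globin and heme counts below. EPOR, the erythropoietin receptor, rose by 1.05 and 0.93 on the log2 scale (edgeR adjusted p = 4.04e-08 and 2.15e-06), TAL1 by 0.46 and 0.34 (edgeR adjusted p = 2.26e-06 and 1.12e-04) and ZFPM1, the cofactor of GATA1, by 0.36 and 0.38 (edgeR adjusted p = 0.00104 and 0.00260). KLF1 went opposite ways, as KEL did but with the signs exchanged: it was at 354 ± 30 CPM in WT, 291 ± 20 CPM in 11H1 (−0.28, edgeR adjusted p = 0.00342) and 428 ± 22 CPM in 14B5 (0.26, edgeR adjusted p = 0.00912). GATA1 fell by 0.18 in 11H1 (edgeR adjusted p = 0.0104) and had a log2 fold change of 0.03 in 14B5 (edgeR adjusted p = 0.611). Of 19 globin and heme genes, 8 were higher and 7 lower in 11H1, and 4 were higher and 5 lower in 14B5. The embryonic globin HBZ fell, with log2 fold changes of −1.52 and −3.99 (edgeR adjusted p = 1.70e-08 and 1.04e-09) and so did HBD, with −1.26 and −0.67 (edgeR adjusted p = 1.62e-04 and 0.0310).

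Markers of other lineages moved as well, where 64.6% of all genes tested were called in 11H1 (32.8% lower) and 53.5% in 14B5 (28.7% lower). Of 21 megakaryocyte markers 18 could be tested against WT in each clone, and 2 were higher and 12 lower in 11H1, and 2 higher and 15 lower in 14B5. Their summed level was 1884 to 1912 CPM in WT, 1492 to 1526 CPM in 11H1 and 1420 to 1459 CPM in 14B5, and PF4 was at 0 counts in all libraries of both clones. GP9, of the von Willebrand factor receptor, was lower, with log2 fold changes of −2.39 and −4.80 (edgeR adjusted p = 3.36e-09 and 7.42e-09), ITGB3, the integrin partner of ITGA2B, was lower at −1.42 and −3.26 (edgeR adjusted p = 1.67e-08 and 9.84e-09) and GP6, the collagen receptor, at −1.24 and −3.43 (edgeR adjusted p = 7.89e-06 and 6.32e-08). Of 15 myeloid and lymphoid markers, 11 were under 1 CPM in WT. Of 7 tested in 11H1, 1 was higher and 5 were lower, with log2 fold changes from −2.57 to 1.86, and of 9 tested in 14B5, 3 were higher and 5 lower, from −4.99 to 5.13. Their summed level was 238 to 244 CPM in WT, 133 to 140 CPM in 11H1 and 142 to 158 CPM in 14B5. The largest part of that was LYZ, lysozyme, with log2 fold changes of −0.90 and −0.76 (edgeR adjusted p = 1.09e-08 and 8.09e-07). For CD79A, a B cell receptor chain, they were −0.47 and −0.88 (edgeR adjusted p = 5.25e-05 and 7.37e-06). The part of these shifts in the values of the 8 genes was not tested.

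The RNA changes of the 5 nearest tested genes on each side of a gene are set beside its own. Copy number was not measured in these libraries, and whether a stretch of the chromosome changed was not tested. Around SLC4A1 the 10 flanking genes had a median log2 fold change of 0.23 in 11H1 and −0.07 in 14B5, and none exceeded SLC4A1 in either clone. Around SPTB the medians were −0.04 and −0.23, again with none beyond SPTB. Around GYPB, whose flank includes GYPE, they were −0.04 and −0.11, and in 14B5 none had fallen as far as GYPB. In the direct comparison of the clones, 5 of the 10 genes around GYPB were higher in 11H1 by edgeR, beside 31.6% of all genes tested. The median of the 10 was 0.46, beside 1.83 for GYPB. The flanks of GYPE, EPB42, SLC4A1, ANK1 and SPTB also held 5 such genes each, that of KEL 4 and that of RHAG 3. The flanks of KEL had medians of −0.19 and −0.15. Around EPB42, 6 of the 10 flanking genes exceeded EPB42 in each clone, with medians of 0.29 and 0.22 beside its 0.18. Around ANK1 the medians were 0.34 and 0.10, and 3 genes in 11H1 and 2 in 14B5 exceeded it. The flanks of RHAG ranged from −3.10 to 0.87 in 11H1 and from −2.81 to 0.53 in 14B5.

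**Figure D5:**
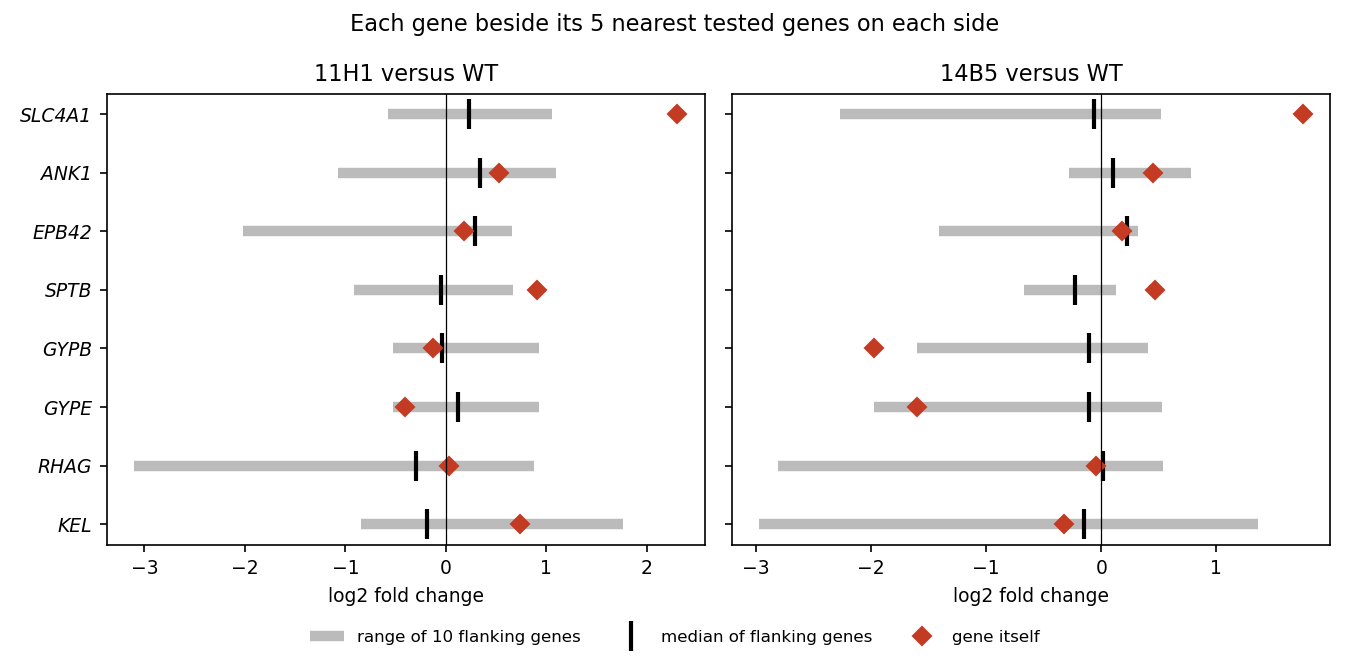
log2 fold change (x axis) of each of the 8 genes (diamond) beside the range (bar) and the median (tick) of its 5 nearest tested genes on each side, in 11H1 versus WT (left) and 14B5 versus WT (right). SLC4A1 and SPTB lie beyond their flanking genes in both clones and GYPB in 14B5, while EPB42 lies near the median of its flank.

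Likeness of pattern was measured as the distance between 2 genes in the plane of their 2 log2 fold changes, 11H1 versus WT and 14B5 versus WT, over 11927 protein-coding genes. The gene nearest to SLC4A1 was FHDC1 (2.22 and 1.74), at a distance of 0.081. That for SPTB was HSBP1L1 (0.93 and 0.46), for ANK1 AP4E1 (0.53 and 0.45) and for EPB42 IST1 (0.18 and 0.18). LCN10 (−0.04 and −2.02) was nearest to GYPB at 0.098, and SSC4D (−0.46 and −1.62) to GYPE at 0.056. XRN1 (0.03 and −0.05) was nearest to RHAG. The smallest distances were 0.0024 for ANK1, 0.0041 for RHAG and 0.0064 for EPB42. The 8 genes themselves were left out of the search, so none of them could be the nearest to another.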

How the data were processed

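Bulk RNA-seq libraries of SET2 cells (WT, 11H1 and 14B5, n = 3 each) were analysed. The deposited values are expected counts per gene that the authors made with RSEM and did not normalize. The submitters' processing notes name STAR 2.7.9a, Picard, RSEM and GRCh38, and the annotation release is not given in the sources used here. RSEM divides reads that match several genes, and 5.73% to 6.64% of values per library carried a fraction. The study's methods describe stranded mRNA libraries read from both ends for 100 cycles, whereas the label names another kit. All 6 KO libraries were used, and 92 spike-in entries at 0 were left out. No column of per-sample values was left unused (0). No library was a copy: between libraries of a group the chi-square per gene was 4.06 to 36.2 times that of counting noise.

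Expected counts were rounded and fitted over all genes with edgeR 4.0.16 in R 4.3.3 (TMM, filterByExpr for the groups compared, quasi-likelihood F test, Benjamini-Hochberg over all genes tested, threshold 0.05). The SE was the log2 fold change divided by the square root of F, and 95% intervals used the t distribution of the fit. CPM were computed with TMM-scaled library sizes, and values per kilobase with merged exons of GENCODE v29 on GRCh38. Positions matched 96.6% of genes by identifier. Promoter shares use distinct full-length windows, without those of the chromosome of ANK1.

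The 8 genes, the lists and the tests were chosen with earlier results of these data known. The genes named were the 8, their binding partners (EPB41, GYPC, XK, RHD, RHCE and ICAM4), KLF1, GATA1, TAL1 and DYRK1A, the largest changes of each list among genes called the same way in both clones with a mean of at least 1 CPM (6 of the other membrane genes, 3 of each other list), and the gene nearest in pattern to each of the 8. Some genes and 1 alternative that these rules cover are not reported here. ITGA2B, PF4, PPBP and VWF were named as markers after their values were seen. Alternatives were DESeq2 1.42.0 size factors and Wald test, limma 3.58.1 (voom) on unrounded values, no filter, a floor of 10 counts per library, a fit of protein-coding genes alone, a block for the replicate number, 3 groups in one fit, and each library left out. The steps were tested on simulated data.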

Additional observations from a re-analysis of the deposited data

Results flagged for a closer look

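The direct test of 11H1 against 14B5 called a difference between the clones in 5 of the 8 genes. Over all genes, 63.7% of 16352 tested were called, so the count is near that share. In that fit the log2 fold change of 11H1 versus 14B5 was 1.83 for GYPB, 1.18 for GYPE and 1.05 for KEL. It was 0.54 for SLC4A1 and 0.43 for SPTB. All were higher in 11H1, with libraries that did not overlap. The share of all genes that separate in this way is not given. For SLC4A1, SPTB and GYPE the clones differed in the size of the change, with the same direction against WT in both. For KEL the directions were opposite, and for GYPB no difference from WT was called in 11H1.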

How the results depend on the processing

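Of 472 recomputed log2 fold changes of the 8 genes, 441 kept their direction and their side of the threshold, 11 lost it, 11 gained it and 9 changed sign, and 116 of 118 recomputed counts stayed within 1.5 times the value given. The other counts were for KO versus WT with 3 groups in one fit, where 7 of the 8 genes and 32 of the other membrane genes passed, beside 4 and 19; that fit does not count the distance between the clones as spread. All changes of sign were in values near 0: EPB42 in 11H1 versus 14B5 came to 0.011 with at least 10 counts in every library, 0.031 with protein-coding genes only and −0.029 to 0.0043 with a library left out, ANK1 in the same comparison to between −0.0022 and 0.11 with a library left out, and RHAG in KO versus WT to 0.0013 with no filter and −0.018 to 0.013 with a library left out. In KO versus WT with no filter the EPB42 call was also lost (0.19, adjusted p = 0.0751) and GYPE was called (−0.89, adjusted p = 0.0438); GYPE was also called by the DESeq2 Wald test (adjusted p = 0.0200) and by limma-voom (−1.02, adjusted p = 0.0303). The cause was not tested.

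Deviations of libraries with the same replicate number correlated at −0.234 to 0.099, so the numbers were not taken to pair libraries. With the replicate block the counts for the 8 genes were 6 in 11H1 versus WT, 5 in 14B5 versus WT, 5 in 11H1 versus 14B5 and 3 in KO versus WT. The calls that went were KEL in 14B5 (−0.32, adjusted p = 0.0506), EPB42 in 14B5 (0.18, adjusted p = 0.0523) and EPB42 in KO versus WT (0.18, adjusted p = 0.0668), and the block changed no other call of the 8 genes. Of the 8 genes GYPB had the lowest count, 204 in 14B5 replicate 1, so counting error weighs most there.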
